A study of Mus musculus with 8 samples.

Results

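Cytoskeleton, adhesion and matrix genes were taken from the Pol II pSer5 peaks of lung smooth muscle cells (SMCs) by the start of the gene name given to each peak. The name had to begin with *Arhg*, *Dock*, *Myo*, *Myh*, *Kif*, *Dync*, *Tub*, *Cep*, *Itg*, *Lam*, *Adam*, *Cdh*, *Pcdh*, *Ctnn*, *Ltbp*, *Fbn*, *Plxn*, *Sema*, *Pdlim*, *Actn*, *Actr*, *Arpc*, *Diaph*, or with *Col* and a digit, and *Plxna4* was left out. As applied, the rule used names only and no measured value, but it was chosen with earlier results of these data known. No reason is given here for leaving out *Plxna4*. The rule took 32 of 1761 peaks, which carried 30 gene names among the 1355 peaks with an assigned gene. Of these, 22 were promoter peaks, with a centre within 5000 nt of the transcription start site (TSS) of the assigned gene, and 10 were gene-body peaks, with a centre farther away. In the whole table there were 1125 promoter peaks and 230 gene-body peaks.

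The libraries came from C57BL/6 mice and compare 2 Ctrl with 2 Tet3smKO:T immunoprecipitations, which the sample labels call WT and Mut. In Tet3smKO:T mice both floxed *Tet3* alleles were deleted after tamoxifen by an ERT2Cre under the α-SMA promoter, so that the deletion is limited to cells that use this promoter, and a tdTomato reporter marked the cells for sorting. Per the study's methods, controls lacked the floxed allele and carried the Cre, the reporter or both, and the sorted cells were tdTomato-positive. Age at sorting and the number of animals behind a library are not given in the sources used here. The study's methods state at least 2 biological replicates for its quantitative analyses, without naming these libraries. The p-values therefore measure the spread between these libraries, of which an unknown part may be technical. Sorted cells of both genotypes were kept in DRB (100 µmol) for 1 h at 4 °C before precipitation, in which 4 µg of antibody met 50 µg of sheared chromatin DNA. The deletion of *Tet3* itself was not checked with these peaks, which hold none assigned to it. The question was whether loss of TET3, an enzyme that oxidizes 5-methylcytosine to 5-hydroxymethylcytosine, changes where initiating Pol II enters genes.

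SMCs contract by sliding myosin along actin filaments that are anchored to the matrix through integrins and the adhesion proteins bound to them. Among the families of the set, *Arhgef* and *Dock* genes encode guanine nucleotide exchange factors, which switch small GTPases on, *Arhgap* genes encode GTPase-activating proteins, which switch them off, and *Arhgdia* encodes a guanine nucleotide dissociation inhibitor. Pol II phosphorylated at serine 5 marks polymerase that has just initiated, and DRB blocks the kinase that releases it into elongation. A peak marks a place where such Pol II was bound. It does not by itself show that Pol II entered the template there.

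Each value below is the authors' normalized read number of a library in a peak, rounded to a whole number, and is a score with no unit. The values summed to 26482 and 27058 in Ctrl replicates 1 and 2 and to 25673 and 26624 in Tet3smKO:T replicates 1 and 2, with a median of 13 or 14 per peak. The steps between values put the value of 1 read at about 0.910, 1.25, 0.690 and 1.20 in the same order, so that a value of 10 rests on about 8 to 14.5 reads. For 10 reads, the exact Poisson interval at 95% runs from 4.80 to 18.4, which covers counting error only. The tissue label could not be checked with these peaks: of 12 smooth muscle markers 0 had an assigned peak, as had 0 of 5 epithelial, 0 of 5 endothelial, 0 of 5 blood cell and 0 of 4 fibroblast markers. A peak centre within 5000 nt of the gene start, not assigned to the marker, was found for 1 of 5 blood cell markers and for 0 of every other list.

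The 200 nt around the centre of a peak show the contrast between both classes. The windows printed here are the gene-body peak with the smallest p-value (*Dock9*), the other gene-body peaks of genes that also had a promoter peak (*Adamts9* and *Dock4*), a gene-body peak that lies beside the start of another gene (*Itga1*), the promoter peak of *Dock4*, and the promoter peaks with the highest values (*Adam17* and *Actr3*). They were read 5′ to 3′ on the strand of the assigned gene from the RefSeq copy of GRCm38, at chr14:121781260-121781459 (*Dock9*), chr6:92874957-92875156 (*Adamts9*), chr12:40559143-40559342 (*Dock4*, gene body), chr13:115090180-115090379 (*Itga1*), chr12:40445934-40446133 (*Dock4*, promoter), chr12:21373580-21373779 (*Adam17*) and chr1:125435715-125435914 (*Actr3*). Of these genes, *Dock4* lies on the plus strand and the others on the minus strand. Capitals mark CpG dinucleotides, the sites at which cytosine is methylated and at which TET3 acts.
Dock9 gene-body: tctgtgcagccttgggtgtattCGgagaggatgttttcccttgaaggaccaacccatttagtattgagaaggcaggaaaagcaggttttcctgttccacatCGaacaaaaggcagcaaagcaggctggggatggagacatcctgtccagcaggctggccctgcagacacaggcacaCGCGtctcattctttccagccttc
Adamts9 gene-body: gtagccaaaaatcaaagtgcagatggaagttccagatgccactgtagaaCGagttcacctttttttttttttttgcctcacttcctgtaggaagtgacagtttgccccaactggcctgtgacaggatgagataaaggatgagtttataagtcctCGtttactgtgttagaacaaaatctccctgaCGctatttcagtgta
Dock4 gene-body: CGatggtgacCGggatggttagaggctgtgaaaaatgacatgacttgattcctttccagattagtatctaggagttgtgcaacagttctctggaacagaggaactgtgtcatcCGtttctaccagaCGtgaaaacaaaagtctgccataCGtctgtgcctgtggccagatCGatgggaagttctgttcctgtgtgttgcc
Itga1 gene-body: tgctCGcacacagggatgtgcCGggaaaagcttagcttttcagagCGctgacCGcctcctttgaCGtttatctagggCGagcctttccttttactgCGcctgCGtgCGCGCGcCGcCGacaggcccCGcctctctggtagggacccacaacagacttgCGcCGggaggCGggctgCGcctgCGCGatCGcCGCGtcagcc
Dock4 promoter: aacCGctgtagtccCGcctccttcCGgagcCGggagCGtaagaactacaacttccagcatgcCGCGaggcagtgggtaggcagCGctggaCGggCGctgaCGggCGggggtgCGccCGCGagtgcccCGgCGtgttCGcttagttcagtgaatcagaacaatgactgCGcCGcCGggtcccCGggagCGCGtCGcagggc
Adam17 promoter: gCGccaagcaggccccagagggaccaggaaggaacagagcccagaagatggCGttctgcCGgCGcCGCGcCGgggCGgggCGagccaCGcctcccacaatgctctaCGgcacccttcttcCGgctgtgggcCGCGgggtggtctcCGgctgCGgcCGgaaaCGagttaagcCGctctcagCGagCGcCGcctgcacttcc
Actr3 promoter: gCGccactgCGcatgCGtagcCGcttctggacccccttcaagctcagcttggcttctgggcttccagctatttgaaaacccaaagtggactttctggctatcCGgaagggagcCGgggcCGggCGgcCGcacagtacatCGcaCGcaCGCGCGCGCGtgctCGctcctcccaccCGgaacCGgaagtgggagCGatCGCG

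The windows of *Dock9*, *Adamts9* and *Dock4* in the gene body held 4, 3 and 6 CpG dinucleotides, and those at the promoters of *Dock4*, *Adam17* and *Actr3* held 25, 22 and 22. Over all 22 promoter peaks of the set the median was 23.5 CpG per window (range 14 to 35), beside 22 over all 1125 promoter peaks. Over the 10 gene-body peaks it was 4 (range 1 to 23), beside 5 over all 230 gene-body peaks. GC content had medians of 71% and 49.5% in the promoter and gene-body windows of the set, against 68.5% and 57% over all peaks of each class. The ratio of observed to expected CpG was 0.99 at the promoters, and 0.32 in gene bodies, where CpG is depleted as in most of the genome.

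Among the gene-body peaks, *Itga1* and *Pcdha4* stood apart with 23 and 15 CpG. The *Itga1* peak was centred 94 nt from the annotated start of *Pelo*, a ribosome rescue factor, which lies on the same strand inside *Itga1*. The *Pcdha4* peak covered the start of *Pcdhgc3*, another protocadherin of the clustered array, and its centre lay 853562 nt from the start given for *Pcdha4*. The gene identifier of this peak carries the name *Gm42416* in GENCODE M21, so that its protocadherin name depends on the annotation release. The gene-body peak in *Lamb3* was centred 410.5 nt from the start of *Gm38118* on the opposite strand. The other 7 of the 10 gene-body peaks lay 5700.5 to 112907 nt from the nearest annotated transcript start, and all 10 lay in introns. Thus 30% of the gene-body peaks of the set were centred within 500 nt of an annotated start of any gene, beside 39.6% of all gene-body peaks.

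**Figure D1:**
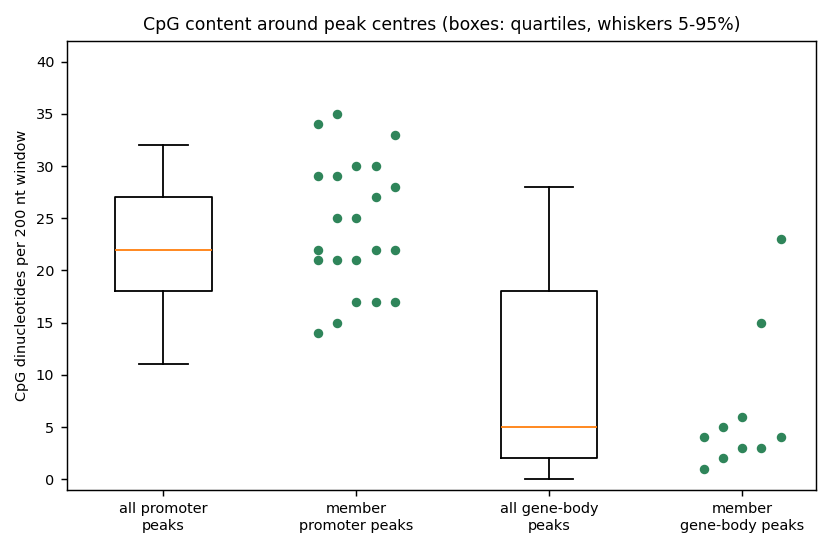
CpG dinucleotides per 200 nt window (vertical axis) for all promoter peaks, the 22 promoter peaks of the set, all gene-body peaks and the 10 gene-body peaks of the set. Boxes give quartiles with the median and whiskers the 5th and 95th percentiles over all peaks of a class, and each green point is 1 peak of the set; the points at 23 and 15 in the last column are *Itga1* and *Pcdha4*.

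At the promoters, all 22 peaks were centred within 88.5 nt of an annotated start of their own gene, and 21 covered an annotated start. The exception was *Arhgef1*, whose peak lay in intron 1, 1364 nt from the gene start and 80 nt from the start of another *Arhgef1* transcript. Peaks of *Adam17*, *Arhgdia*, *Col4a3bp*, *Tubg1* and *Tubgcp3* also covered the start of a second gene (*Gm49586*, *Gm3807*, *Polk*, *Retreg3* and *4931415C17Rik*), and reads cannot be divided between such pairs. The GC box, the letters GGGCGG on either strand, was present in 18 of 22 promoter windows of the set (81.8%) and in 64.1% of all promoter peaks, and in 2 of 10 gene-body windows (20%) and 23.0% of all gene-body peaks. The ETS letters CCGGAAG were in 7 of 22 promoter windows (31.8%), beside 29.2% of all promoter peaks, and in 0 of 10 gene-body windows, beside 8.70%. The CArG box, which serum response factor binds in many contractile genes, had no match in any of the 32 windows and matched 4 windows of all 1761. In the RefSeq promoter table, which holds a short window around each gene start, 22 of the 30 genes were found, with 30 windows, of which 22 held the GC box (73.3%), beside 35.7% of 32851 promoters. Those promoters include genes without a peak, whereas every gene of the set has a peak, so the shares are not of like sets. All promoter peaks, with 64.1% in the windows above, are the closer background. A match is a description of these letters and says nothing about binding.

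The share of annotated genes with a peak was counted by gene name, and a shared start of a name does not give every gene the same role. Of 567 annotated protein-coding genes with such names, 29 had an assigned peak (5.11%), beside 1226 of 21951 protein-coding genes overall (5.59%); the remaining name is that of *Pcdha4*. Among *Actn*, *Actr*, *Arpc*, *Diaph* and *Pdlim* genes, which mostly concern actin assembly and crosslinking, 6 of 32 had a peak (18.75%). Of these, 4 came from the 7 genes whose names begin with *Arpc*, subunits of the Arp2/3 complex that nucleates branched actin filaments. Genes whose names begin with *Arhg* or *Dock* followed with 7 of 75 (9.33%) and those with *Tub* or *Cep*, largely tubulin and centrosome genes, with 4 of 63 (6.35%). Names in *Lam*, *Col*, *Ltbp*, *Fbn* or *Adam* had 6 of 129 (4.65%), among them *Col4a3bp*, which is no matrix gene, and names in *Kif* or *Dync* had 2 of 51 (3.92%), of which *Kif1bp* is no motor. Names in *Itg*, *Cdh*, *Pcdh* or *Ctnn*, mostly integrins, cadherins and catenins, had 4 of 137 (2.92%). None of 52 genes with names in *Myo* or *Myh*, which hold the myosins but also other genes, had an assigned peak. The same held for 28 genes with names in *Sema* or *Plxn*. *Plxna4* was left out by the rule and is not among these 28, so the 0 does not cover it. The values above are shares of named genes in 1 peak set, given without a test. Per the KEGG terms deposited with the peaks, 13 of the 30 genes belonged to focal adhesion or to regulation of the actin cytoskeleton. The set was chosen by the names of such genes, and the share over all genes with a peak was not computed.

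**Figure D2:**
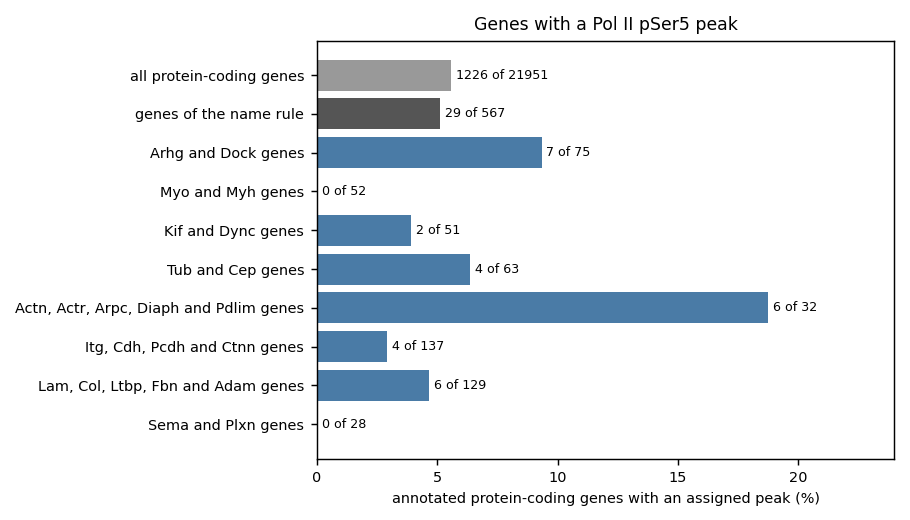
Share of annotated protein-coding genes with an assigned Pol II pSer5 peak (horizontal axis, %), for all protein-coding genes, for the names of the rule and for each group of name prefixes. Numbers beside the bars give genes with a peak of genes annotated. The group of *Actn*, *Actr*, *Arpc*, *Diaph* and *Pdlim* genes had the longest bar of these groups, with 6 of 32. Those of *Myo* and *Myh* and of *Sema* and *Plxn* had none, where *Plxna4* was left out and not counted.

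Comparing genotypes, 0 of the 32 peaks differed between Tet3smKO:T and Ctrl at a Benjamini–Hochberg adjusted p under 0.05 in limma, as did 0% of all 1761 peaks (lowest adjusted p 0.681 in both). At an unadjusted p under 0.05, limma gave 1 peak of the set higher in Tet3smKO:T, in *Dock9*, and 0 lower, against 3.24% of all peaks higher and 3.98% lower. The median log2 fold change was -0.05 over the 22 promoter peaks and -0.03 over all promoter peaks, with 40.9% and 47.0% of them above 0. Over the 10 gene-body peaks it was 0.11, beside 0.10 over all gene-body peaks, with 50% and 55.7% above 0. With promoters limited to 1000 nt, which moves *Arhgef1* to the gene-body class, the gene-body median of the set was -0.15, and with the lowest peaks left out (upper 75% by mean value) it was 0.36. Fold changes are given as Tet3smKO:T over Ctrl on the log2(value + 1) scale, which understates changes of low peaks.

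Differences between libraries of one genotype and those between genotypes lay in overlapping ranges. At the promoter peaks of the set, the median absolute log2 difference was 0.32 between the Ctrl libraries and 0.41 between the Tet3smKO:T libraries, and 0.23 to 0.40 over the 4 pairs of unlike genotype. At the gene-body peaks it was 0.86 and 0.49 between like libraries and 0.34 to 1.00 between unlike ones.

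**Figure D3:**
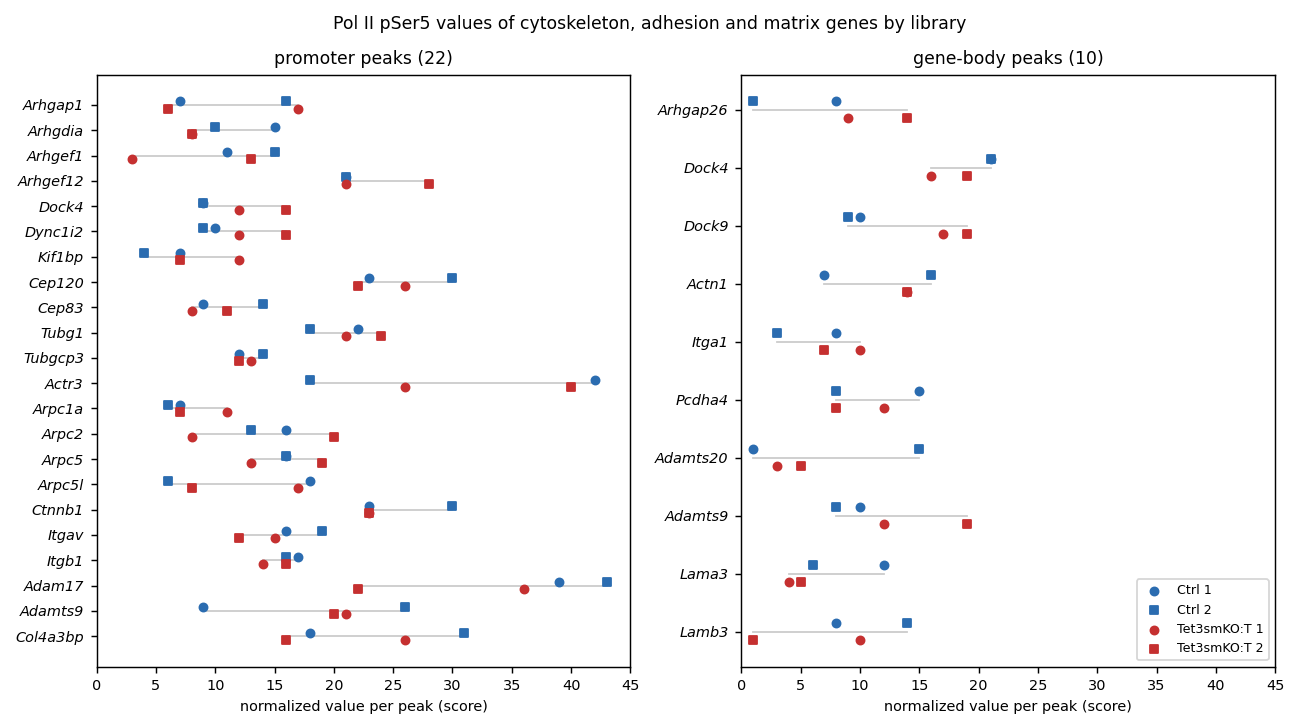
Normalized value per peak (horizontal axis, score) in each of the 4 libraries for the 22 promoter peaks and the 10 gene-body peaks of the set, ordered by name group. Blue points are Ctrl, red points Tet3smKO:T, circles replicate 1 and squares replicate 2, and a grey line spans all 4 values; red and blue points lie apart with red higher in 2 promoter and 3 gene-body peaks and with red lower in 3 promoter and 2 gene-body peaks.

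In gene bodies, *Arhg* and *Dock* genes gave 3 of the 10 peaks. The *Dock9* peak (chr14:121781244-121781476, minus strand) lay in intron 1 of a *Dock9* transcript, 16477 nt downstream of the gene start. *Dock9* encodes an exchange factor for Cdc42, the GTPase that directs filopodia and cell polarity. Its values were 10 and 9 in Ctrl, against 17 and 19 in Tet3smKO:T. Both Tet3smKO:T libraries were above both Ctrl libraries, with a log2 fold change of 0.86 (SE 0.28) and a Benjamini–Hochberg adjusted p of 0.681 in limma (unadjusted 0.0221). Blocking on the replicate number, limma gave 0 peaks of the set an unadjusted p under 0.05 (lowest Benjamini–Hochberg adjusted p 0.780). The sequence printed for *Dock9* above is this intronic window, and no other annotated start lay closer than that of *Dock9* itself.

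*Dock4*, which encodes an exchange factor for Rac, had a peak in each class. The intronic peak (chr12:40559134-40559352, plus strand, intron 1, 113291 nt downstream of the start) had values of 21 and 21 in Ctrl, against 16 and 19 in Tet3smKO:T (log2 fold change -0.25, SE 0.25). The promoter peak (chr12:40445950-40446118, in exon 1) had values of 9 and 9 in Ctrl, against 12 and 16 in Tet3smKO:T (log2 fold change 0.57, SE 0.31). Groups did not overlap at either peak, and the direction was opposite, lower in the intron and higher at the promoter of Tet3smKO:T libraries. The adjusted p of limma with Benjamini–Hochberg adjustment was 0.772 and 0.716, and the difference between the peaks was not tested. In level, the intronic peak stood above the promoter peak per length, with 8.83 against 6.85 per 100 nt over the 4 libraries.

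*Adamts9*, a secreted metalloproteinase that cleaves proteoglycans of the matrix, was the other gene with both. Its intronic peak (chr6:92874962-92875153, minus strand, intron 19) had values of 10 and 8 in Ctrl, against 12 and 19 in Tet3smKO:T (log2 fold change 0.70, SE 0.35). Its promoter peak (chr6:92943422-92943732) had values of 9 and 26 in Ctrl, against 21 and 20 in Tet3smKO:T (log2 fold change 0.39, SE 0.49). Groups were apart in the intron, where Tet3smKO:T was higher, and overlapped at the promoter, where Ctrl replicates 1 and 2 were the lowest and the highest of the 4 libraries. Without Ctrl replicate 1 the promoter value turned to -0.33. The intronic peak lay 68434 nt from the gene start but 14902.5 nt from the start of the nearest *Adamts9* transcript.

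The other gene-body peaks with groups apart were *Arhgap26* and *Lama3*. *Arhgap26* encodes a GTPase-activating protein, and its peak (chr18:39137956-39138107, intron 10) had values of 8 and 1 in Ctrl, against 9 and 14 in Tet3smKO:T. Its log2 fold change of 1.53 (SE 0.82) rested on Ctrl replicate 2: without this library it was 0.44. *Lama3*, the α chain of laminin-332 in basement membranes, had a peak (chr18:12386036-12386154, intron 2) with values of 12 and 6 in Ctrl, against 4 and 5 in Tet3smKO:T (log2 fold change -0.80, SE 0.55). Thus both Tet3smKO:T values were above both Ctrl values at 3 of 10 gene-body peaks (*Dock9*, *Adamts9* and *Arhgap26*), beside 22.6% of all gene-body peaks, and below them at 2 of 10 (*Dock4* and *Lama3*), beside 14.8%.

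At the remaining 5 gene-body peaks the groups overlapped. *Actn1*, α-actinin 1, which crosslinks actin in dense bodies and adhesions, had values of 7 and 16 in Ctrl, against 14 and 14 in Tet3smKO:T at a peak in intron 1 (chr12:80230121-80230293). *Itga1*, the collagen-binding integrin subunit α1, had 8 and 3 in Ctrl, against 10 and 7 in Tet3smKO:T (chr13:115090204-115090356), at the position beside the *Pelo* start. *Lamb3*, the β chain of laminin-332, had 8 and 14 in Ctrl, against 10 and 1 in Tet3smKO:T (chr1:193262160-193262335). These log2 fold changes were 0.36 (SE 0.42), 0.64 (SE 0.58) and -1.31 (SE 0.89), and 1 library decided the size of each. Without Ctrl replicate 1 *Actn1* was -0.18, without Ctrl replicate 2 *Itga1* was 0.0598, and without Tet3smKO:T replicate 2 *Lamb3* was -0.079. The peak named *Pcdha4*, a neuronal protocadherin (chr18:37806214-37806392), had 15 and 8 in Ctrl, against 12 and 8 in Tet3smKO:T (log2 fold change -0.15, SE 0.42). *Adamts20*, another secreted metalloproteinase, had 1 and 15 in Ctrl, against 3 and 5 in Tet3smKO:T at a peak in intron 28 (chr15:94311120-94311204), so that its 2 Ctrl libraries were the lowest and the highest (log2 fold change -0.21, SE 1.20). Of the *Adamts20* window, 78% was repeat-masked sequence, the highest share of any window of the set.

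**Figure D4:**
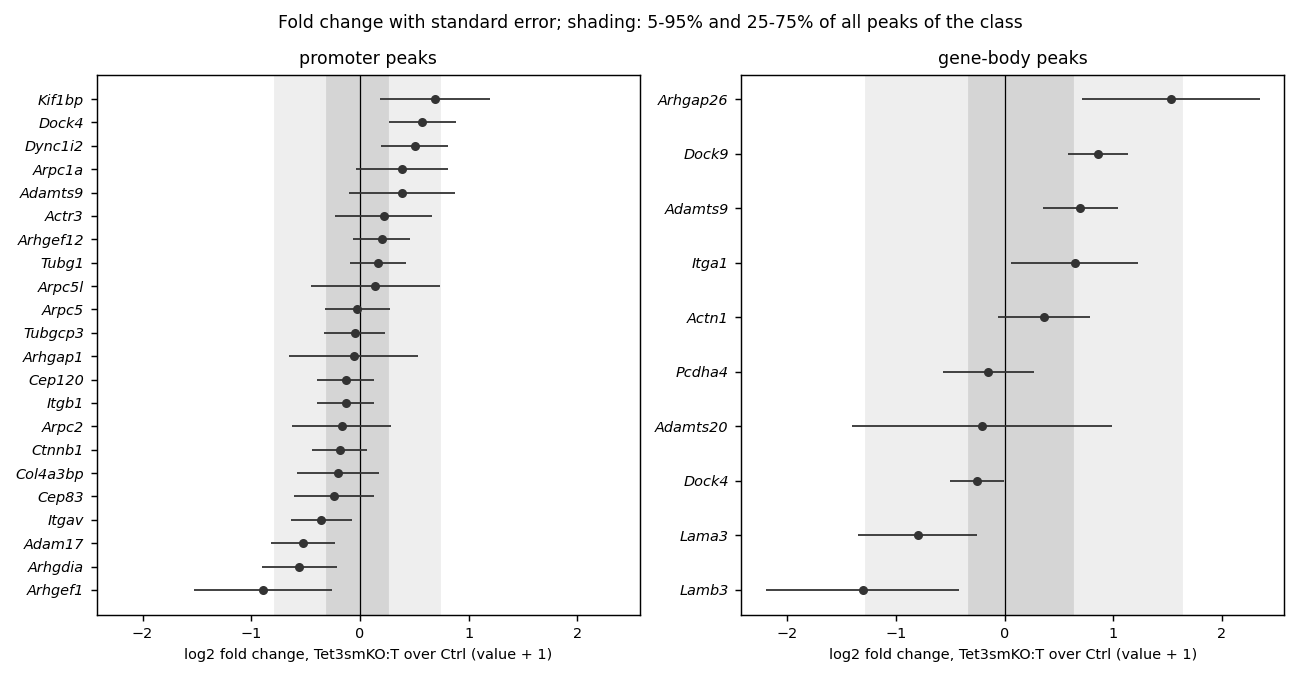
Log2 fold change of Tet3smKO:T over Ctrl on the log2(value + 1) scale (horizontal axis) for each peak of the set, in promoters (left) and gene bodies (right); points are limma estimates and bars their standard errors, with 2 libraries per genotype. Light and dark grey bands span 5 to 95% and 25 to 75% of all peaks of the class; *Arhgef1* at the promoters (-0.89) and *Lamb3* in the gene bodies (-1.31) lay below the light band, and all others lay within it.

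At promoters, *Arhg* and *Dock* genes gave 5 peaks. *Arhgef12*, a guanine nucleotide exchange factor that acts downstream of G protein-coupled receptors, had values of 21 and 21 in Ctrl, against 21 and 28 in Tet3smKO:T. *Arhgap1*, a GTPase-activating protein of the family, had 7 and 16 in Ctrl, against 17 and 6 in Tet3smKO:T, which placed the lowest and the highest value in the same genotype. *Arhgdia*, the dissociation inhibitor, had 15 and 10 in Ctrl, against 8 and 8 in Tet3smKO:T, with both Tet3smKO:T libraries below both Ctrl libraries and a log2 fold change of -0.56 (SE 0.34). *Arhgef1*, another exchange factor, had 11 and 15 in Ctrl, against 3 and 13 in Tet3smKO:T. Its log2 fold change of -0.89 (SE 0.63) was the lowest of the promoter peaks of the set, and without Tet3smKO:T replicate 1 it was 0.01.

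Actin assembly genes gave 5 promoter peaks, all of them for parts of the Arp2/3 complex. *Actr3*, the Arp3 subunit, had values of 42 and 18 in Ctrl, against 26 and 40 in Tet3smKO:T, ranking 74 of 1761 by mean value. The spread within each genotype was wider here than the difference between them, with a log2 fold change of 0.22 (SE 0.45). *Arpc5* had 16 and 16 in Ctrl, against 13 and 19 in Tet3smKO:T, and *Arpc2* had 16 and 13 in Ctrl, against 8 and 20 in Tet3smKO:T. *Arpc5l* had 18 and 6 in Ctrl, against 17 and 8 in Tet3smKO:T, and *Arpc1a* had 7 and 6 in Ctrl, against 11 and 7 in Tet3smKO:T. Groups overlapped or met at all 5, with log2 fold changes from -0.17 to 0.39.

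The microtubule genes gave 6 promoter peaks. *Dync1i2*, an intermediate chain of cytoplasmic dynein, had 10 and 9 in Ctrl, against 12 and 16 in Tet3smKO:T, with both Tet3smKO:T libraries above both Ctrl libraries and a log2 fold change of 0.50 (SE 0.31). *Kif1bp*, which encodes a protein that binds kinesins and is no motor itself, had 7 and 4 in Ctrl, against 12 and 7 in Tet3smKO:T (log2 fold change 0.69, SE 0.50). *Tubg1*, the γ-tubulin that nucleates microtubules, had 22 and 18 in Ctrl, against 21 and 24 in Tet3smKO:T. *Tubgcp3*, a subunit of the γ-tubulin complex, had 12 and 14 in Ctrl, against 13 and 12 in Tet3smKO:T. For the centriole genes the values were 23 and 30 in Ctrl, against 26 and 22 in Tet3smKO:T at *Cep120*, and 9 and 14 in Ctrl, against 8 and 11 in Tet3smKO:T at *Cep83*. At these 4 tubulin and centrosome promoters the groups overlapped, with log2 fold changes from -0.24 to 0.17.

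Adhesion genes gave 3 promoter peaks, with log2 fold changes from -0.35 to -0.13. *Ctnnb1*, β-catenin, which joins cadherins to the actin cytoskeleton and carries Wnt signals, had values of 23 and 30 in Ctrl, against 23 and 23 in Tet3smKO:T. *Itgb1*, the integrin β1 subunit shared by the receptors for collagen, laminin and fibronectin, had 17 and 16 in Ctrl, against 14 and 16 in Tet3smKO:T. *Itgav*, the αv subunit of vitronectin receptors, had 16 and 19 in Ctrl, against 15 and 12 in Tet3smKO:T, with groups apart and a log2 fold change of -0.35 (SE 0.28).

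*Adam* and *Col* names gave 3 promoter peaks, of which that of *Adamts9* is described above. *Adam17*, the sheddase that releases TNF and ligands of the EGF receptor, had the highest mean value of the set, 35 over the 4 libraries and rank 37 of 1761. It also led per length, with 12.2 per 100 nt, against medians of 7.02 over the promoter peaks of the set and 6.99 over all promoter peaks. Its values were 39 and 43 in Ctrl, against 36 and 22 in Tet3smKO:T, with both Tet3smKO:T libraries lower and a log2 fold change of -0.52 (SE 0.29). *Col4a3bp*, the ceramide transfer protein and no collagen, had 18 and 31 in Ctrl, against 26 and 16 in Tet3smKO:T. Over all promoters of the set, both Tet3smKO:T values were above both Ctrl values at 2 of 22 (*Dock4* and *Dync1i2*), beside 14.6% of all promoter peaks, and below them at 3 of 22 (*Adam17*, *Arhgdia* and *Itgav*), beside 17.4%. Of the 22 promoter fold changes 9 kept their sign under every alternative computed, and of the 10 gene-body fold changes 7. All alternatives reuse the same 4 libraries, and the block and the filter cannot change a single fold change. Peaks with groups apart keep their sign when 1 library is left out, so these counts do not measure reproducibility.

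Summed over the set, gene-body peaks held 0.378% and 0.373% of all values in the Ctrl libraries and 0.417% and 0.417% in the Tet3smKO:T libraries. The mean share was 0.375% ± 0.003 (SD, n = 2) in Ctrl and 0.417% ± 0.0001 in Tet3smKO:T, a difference of 0.041 percentage points (exact two-sided permutation test, p = 0.333, the smallest that 2 libraries against 2 can give). Both Tet3smKO:T libraries were above both Ctrl libraries, by sums of 107 and 111 against 100 and 101 over 10 peaks. Such SDs rest on 2 libraries each and can fall below counting error, which was not computed for these sums. The share held by all gene-body peaks was not computed either. Their median log2 fold change was 0.10, beside 0.11 in the set, so the shift is not shown to be particular to the set. With promoters limited to 1000 nt the difference was 0.0232 percentage points (exact permutation test, p = 0.667), and in the upper 75% of peaks it was 0.0643. Promoter peaks held 1.39% and 1.42% in Ctrl, against 1.41% and 1.37% in Tet3smKO:T, and these groups overlapped (exact two-sided permutation test, p = 0.667).

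Further genes of contraction, adhesion and cytoskeleton were taken from a list of 87, of which 14 had an assigned peak. In limma 0 of the 14 passed a Benjamini–Hochberg adjusted p under 0.05 (lowest 0.681), 0 were higher and 2 lower at an unadjusted p under 0.05 (beside 3.24% and 3.98% of all peaks), and the median log2 fold change was -0.07. *Macf1*, which crosslinks actin and microtubules, had 13 and 16 in Ctrl, against 2 and 5 in Tet3smKO:T at a gene-body peak. This peak was centred 263 nt from the annotated start of *Mir6398* on the opposite strand. *Rdx*, radixin, which ties actin to the membrane, had 29 and 24 in Ctrl, against 18 and 11 in Tet3smKO:T at its promoter. Both Tet3smKO:T values were above both Ctrl values at 4 of these 14 peaks (beside 17.1% of all peaks), among them *Vcl*, vinculin (5 and 4 in Ctrl, 8 and 8 in Tet3smKO:T), and *Lims1*, PINCH1 (4 and 4 in Ctrl, 8 and 11 in Tet3smKO:T), and below them at 5 (beside 16.6%).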

How the data were processed

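Pol II pSer5 ChIP–seq of sorted, DRB-treated lung SMCs was analysed from the 4 immunoprecipitated libraries (2 Ctrl, 2 Tet3smKO:T); the inputs have no column of values and were not analysed here. Groups came from the sample titles. Per the study's methods, the authors called peaks in each library with MACS2, set thresholds by eye, removed blacklisted regions, unified and recounted the peaks, subtracted input in windows, and normalized with DESeq2. The submitters' processing notes also name Trimmomatic 0.36, Picard 2.17.10 and mm10; the aligner is not given in the sources used here. The deposited values are scores, since the authors normalized the reads of each peak and then rounded the result, and they are not raw counts. The authors also gave the fraction of each peak that overlaps the gene, the distance to the TSS, and the mean per genotype, of which the distance sets the peak class here. Number of unused columns of per-sample values: 0.

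Because the values are normalized, they were tested as log2(value + 1) with limma 3.58.1 in R 4.3.3 (lmFit, eBayes with trend; two-sided) over all 1761 peaks without a filter, adjusted by Benjamini–Hochberg, and called at 0.05. The script was tested on simulated counts with a fixed spread and large known changes, which does not show its power for smaller changes in these libraries. Shares of summed values were compared by exact permutation. Other steps used Python 3.11.15, numpy 2.4.6, scipy 1.17.1, pandas 2.3.3, pysam 0.24.0 and matplotlib 3.10.9. Transcript starts and introns came from GENCODE M21 (GRCm38), sequences and repeat masking from RefSeq GRCm38. The file does not say whether starts count from 0 or 1, so positions may be off by 1 nt. The deposited value per read was estimated from the steps between scores. Such steps, whole reads times 1 factor per library, are what values without input subtraction would show, whereas the study's methods describe subtraction. Whether input was subtracted from these values was not tested, and the estimated reads assume that it was not.

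The members, gene lists and name groups were chosen with earlier results of these data known. Of the peaks with a gene identifier, 95 had no name, and 0 of these would be members by their GENCODE name. The rule for named genes took every gene-body peak, peaks with an unadjusted p under 0.05, the 8 highest promoter peaks, the 2 highest promoter peaks of each name group, and genes with several peaks; the other promoter peaks were added after their values were seen, as were the motifs. Same-numbered libraries are not stated to share animals or batches, and the block is given with the alternatives. The alternatives changed the pseudocount, a filter, the normalization, the block, the promoter distance and the libraries.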

Additional observations from a re-analysis of the deposited data

How the results depend on the processing

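No peak of the set had a Benjamini–Hochberg adjusted p under 0.429 in limma under the alternatives computed, so the count of 0 stayed at 0, where the filter to the upper 75% of peaks left out 7 of the 32 (*Adamts20*, *Arhgap26*, *Arpc1a*, *Itga1*, *Kif1bp*, *Lama3* and *Lamb3*), while over all 1761 peaks scaling to equal totals gave 6 calls, 0 of them in the set. At an unadjusted p under 0.05 the count of 1 peak became 2 (*Arhgap26* and *Dock9*) with equal totals and 0 with the replicate block; leaving out 1 library each gave 2 to 5, 2 without Ctrl replicate 1 or Tet3smKO:T replicate 2, 5 without Ctrl replicate 2 and 4 without Tet3smKO:T replicate 1. The *Dock9* fold change lay between 0.52 and 0.93 on the log2 scale throughout. Same-numbered libraries deviated with a correlation of -0.07, so the numbers are not shown to pair them; the block left each fold change as it was.

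The promoter median of -0.05 became -0.0927 in the upper 75% of peaks, -0.0012 with quantile normalization and -0.0203 with equal totals, and lay between -0.12 (without Ctrl replicate 1) and 0.04 (without Ctrl replicate 2) when 1 library was left out. The gene-body median of 0.11 became 0.36 in the upper 75%, where low peaks are absent, and -0.15 with promoters limited to 1000 nt, which moves *Arhgef1* into the class; without 1 library it lay between 0.04 and 0.25. The gene-body share difference of 0.041 percentage points became 0.0643 and 0.0232 under the same changes (exact permutation p = 0.333 and 0.667).

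Single fold changes that turned sign were small or rested on 1 library. *Arpc5* was 0.0089 with equal totals, and with quantile normalization *Tubgcp3* was 0.0152 and *Arhgap1* 0.0538. Leaving out 1 library gave ranges of -0.33 to 1.10 for the *Adamts9* promoter, -0.37 to 0.81 for *Actr3*, -0.28 to 0.23 for *Arpc5*, -0.78 to 0.44 for *Arpc2*, -0.58 to 0.86 for *Arpc5l*, -0.74 to 0.63 for *Arhgap1*, -1.79 to 0.0149 for *Arhgef1*, -0.15 to 0.0535 for *Tubgcp3*, -0.53 to 0.0555 for *Cep83*, -0.31 to 0.0543 for *Cep120*, -0.58 to 0.17 for *Col4a3bp*, -0.18 to 0.91 for *Actn1*, -1.71 to 1.29 for *Adamts20* and -0.56 to 0.27 for *Pcdha4*. Where a library is alone in its genotype, it is assumed to vary like the other genotype. With about 8 to 14.5 reads behind a value of 10, counting error alone is wide.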
